A study of Mus musculus with 2 samples.

Results

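Slc17a6 nuclei are the brain nuclei that carried mRNA of Slc17a6 and neither of the GABA-synthesis genes Gad1 and Gad2, and they numbered 163 of the 26705 nuclei kept in single-nucleus RNA sequencing of mouse whole brain. They were chosen by measured values. A nucleus needed at least 2 unique molecular identifiers (UMIs, each marking a captured RNA molecule) of Slc17a6, more UMIs of Slc17a6 than of Slc17a7, 0 UMIs of Gad1 and Gad2 together, fewer than 10 UMIs of Nwd2, and at most 1 of Mog, Pdgfra, Csf1r, Flt1 and Aqp4 detected. These rules left 87 of 11037 kept nuclei in the ShamRT-28d library and 76 of 15668 in the WBRT-28d library. Each library was made from the frozen whole brains of 2 C57BL/6 mice (C57BL/6J per the methods), bought as females of 4 to 6 weeks per the study's methods. The mice of WBRT-28d had whole-brain irradiation in 5 fractions of 2 Gy and were harvested after 28 days. Those of ShamRT-28d are untreated per the labels and mock-irradiated per the methods. Nuclei were not mapped to mice, and with 1 library per condition no test between conditions was made, so that irradiation, the pooled mice and the library cannot be told apart.

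Slc17a6 encodes VGLUT2, a transporter that loads glutamate into synaptic vesicles. In the adult rodent brain VGLUT2 prevails in glutamatergic neurons of the thalamus, hypothalamus, midbrain and hindbrain, while VGLUT1, encoded by Slc17a7, prevails in the cerebral cortex and hippocampus, with some neurons carrying both. Thalamic relay neurons send their axons to the cortex and express the Wnt-pathway transcription factors Tcf7l2 and Lef1. Slc17a6 lies on chromosome 7 at 51622006 to 51671119 on the plus strand, and Slc17a7 on the same chromosome and strand at 45163949 to 45176142 (GRCm38).

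The Slc17a6 nuclei were counted more deeply than most nuclei. They held a median of 8217 UMIs in ShamRT-28d (930 to 36771) and 7562.5 in WBRT-28d (1252 to 20411), against medians of 2378 and 2594 over all kept nuclei, and 879123 and 596339 UMIs in all. Doublets were called by Scrublet in 725 of the kept ShamRT-28d nuclei (6.57%) and 3134 of the kept WBRT-28d nuclei, a larger share. Among Slc17a6 nuclei the calls were 1 of 87 (1.15%) and 16 of 76 (21.1%). The libraries shared 43 barcodes, of which 0 belonged to a Slc17a6 nucleus in either. Neuronal identity was checked with genes outside the rule. Syt1, the calcium sensor of synaptic vesicles, had a UMI in 92.0% and 90.8% of Slc17a6 nuclei, against 42.7% and 69.1% of oligodendrocyte nuclei (at least 2 UMIs of Mog, median depth 2955.5 and 3478 UMIs), and Rbfox3, which encodes NeuN, in 72.4% and 71.1% against 15.2% and 32.9%.

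Slc17a6 itself summed to 353 UMIs in the sham and 199 UMIs in the irradiated library, or 402 and 334 CPM (counts of a gene scaled to 1000000 UMIs of the set). Just inside the threshold, with exactly 2 UMIs, lay 38 Slc17a6 nuclei from the sham library (43.7%) and 46 from the irradiated library (60.5%). Just outside it, with exactly 1 UMI and the other criteria met, lay 148 and 188 nuclei, with median depths of 2774.5 and 2572.5 UMIs. At the upper end, 33 ShamRT-28d nuclei (37.9%) and 11 WBRT-28d nuclei (14.5%) held 4 UMIs or more, and the highest held 19 and 7. Slc17a7 had a UMI in 30 and 23 Slc17a6 nuclei.

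**Figure D1:**
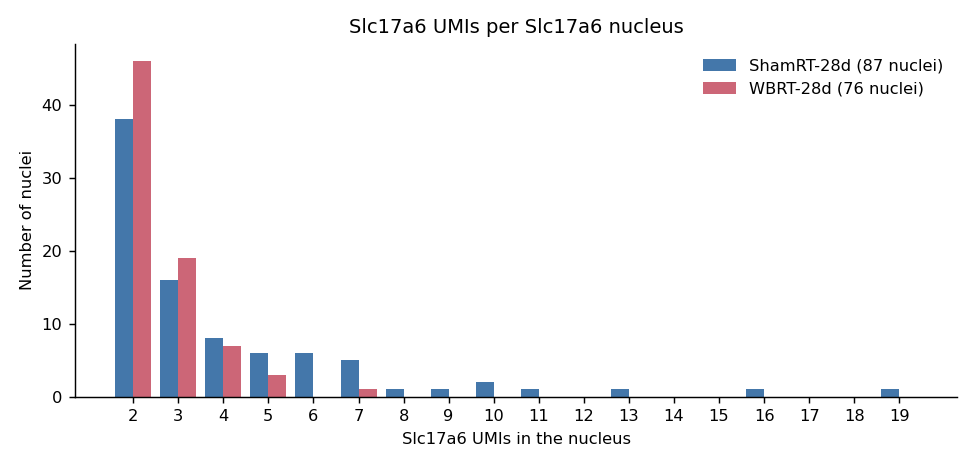
Number of Slc17a6 nuclei (vertical axis) by their UMIs of Slc17a6 (horizontal axis) in each library. The 2-UMI bars hold 38 ShamRT-28d and 46 WBRT-28d nuclei, and no WBRT-28d nucleus lies above 7 UMIs.

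The share of Slc17a6 nuclei was 0.788% of kept nuclei in ShamRT-28d (95% exact interval 0.632 to 0.971) and 0.485% in WBRT-28d (0.382 to 0.607), a ratio of 0.615 (0.446 to 0.847). All intervals here cover counting error only. Slc17a7 nuclei, defined by the mirrored rule, went from 7.62% to 4.40% (ratio 0.578, 0.522 to 0.640), and nuclei with at least 2 UMIs of Gad1 and Gad2 and neither transporter from 6.51% to 8.66% (ratio 1.33, 1.22 to 1.46). The background of the rule was read in oligodendrocyte nuclei, which should lack Slc17a6. Because the rule allows 1 other marker, 6 ShamRT-28d and 3 WBRT-28d members are themselves in this oligodendrocyte set, which is not separate from the members. Without the limit on other markers, 8 of 1694 oligodendrocyte nuclei (0.472%, 0.204 to 0.928) met the rule in ShamRT-28d and 7 of 1951 (0.359%, 0.144 to 0.738) in WBRT-28d, against 0.815% and 0.549% of all kept nuclei. Both shares of all kept nuclei thus lay within the interval of the oligodendrocyte background, and how many members took their Slc17a6 from free RNA cannot be read from the rule alone. At 4 UMIs or more of Slc17a6, members made up 0.299% of kept nuclei in ShamRT-28d and 0.0702% in WBRT-28d, and 0.118% and 0.103% of oligodendrocyte nuclei (2 nuclei in each library) passed. The share ratio was 0.431 (0.264 to 0.693) at 3 UMIs or more of Slc17a6.

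Clustering of the 163 nuclei gave 4 sub-clusters, whose leading genes are given as descriptions. Sub-cluster 0 held 38 nuclei (34 from ShamRT-28d, 4 from WBRT-28d) and was led by Prkch, Synpo2, Trpm6, Vangl1, Plekhg1, Col25a1, Grid2ip, Kcnc2, Prox1os and Ntng1. It was thalamus-like, with Ntng1 in 100% of its nuclei, Tcf7l2 in 89.5%, Synpo2 in 86.8%, Lef1 in 76.3% and Slitrk6 in 34.2%, and 21 of its nuclei had 4 UMIs or more of Slc17a6. Since 34 of its nuclei came from ShamRT-28d, it may stand for that library rather than for a type, and sub-cluster sizes were not compared between the conditions.

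The other 3 sub-clusters stayed unnamed. Sub-cluster 1 held 60 nuclei (22 and 38) and was led by Reln, Dach1, Kcnip1, Galntl6, Ndst4 and Il1rapl2. Sub-cluster 2 held 57 nuclei (23 and 34) and was led by the oligodendrocyte genes St18 and Mag, with Mobp and Mbp among its leading genes. Slc17a7 was found in 31 of its nuclei, and 40 had exactly 2 UMIs of Slc17a6. The 8 listed oligodendrocyte genes summed to 2720 CPM in its ShamRT-28d nuclei and 945 CPM in its WBRT-28d nuclei, against 703 and 624 CPM over all Slc17a6 nuclei (0 to 29620 and 0 to 11980 in single nuclei), 543.5 and 896 CPM in Slc17a7 nuclei and 14940 and 7825 CPM in oligodendrocyte nuclei. Their part in the results on sub-cluster 2 was not tested. Sub-cluster 3 held 8 nuclei, all of ShamRT-28d, led by Corin, Postn, Pgm5 and Ctxn3, with the early B-cell factor gene Ebf3 in 100% of them.

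**Figure D2:**
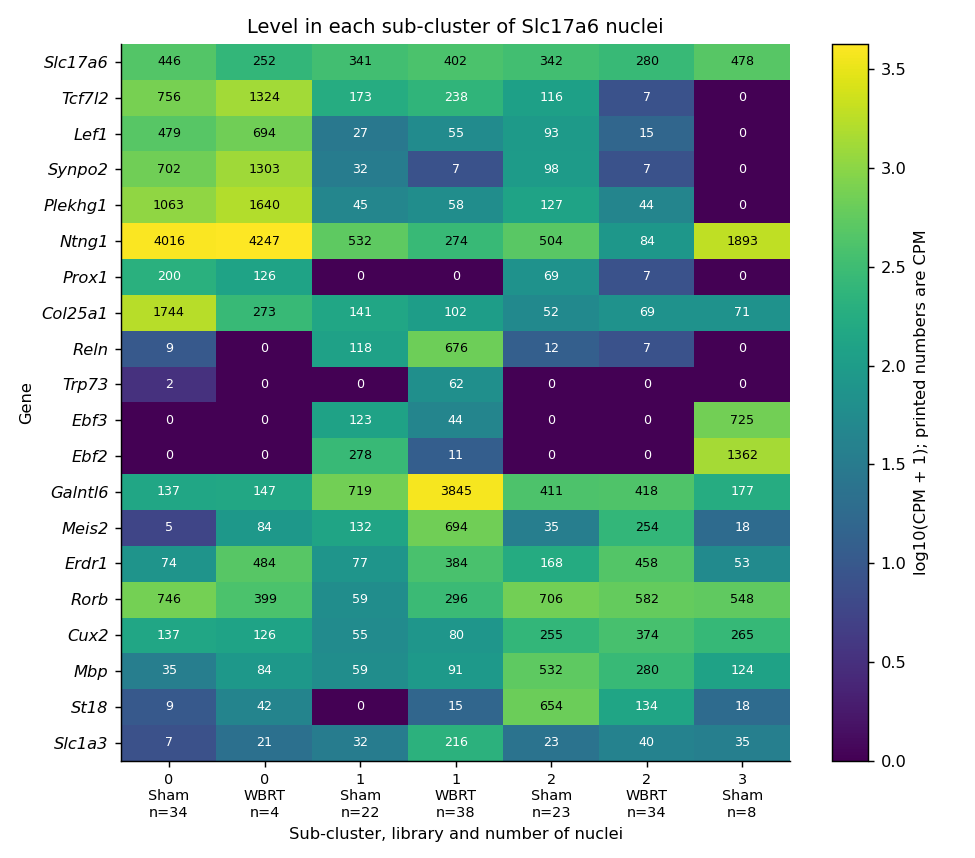
Heat map of 20 genes (vertical axis) in the 7 combinations of sub-cluster and library that hold nuclei (horizontal axis), with the CPM printed and the colour on a log10(CPM + 1) scale. Tcf7l2 stands at 756 and 1324 CPM in sub-cluster 0 and at 7.27 CPM in the WBRT-28d nuclei of sub-cluster 2.

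The region of origin was read from 100 marker genes in 11 lists. Thalamic genes were the main subcortical signal, and most of those named were found in a smaller share of WBRT-28d than of ShamRT-28d members. Tcf7l2 had a UMI in 42.5% of Slc17a6 nuclei in ShamRT-28d (32.0 to 53.6) and 19.7% in WBRT-28d (11.5 to 30.5), against 3.92% and 10.3% of Slc17a7 nuclei and 22.4% and 32.7% of oligodendrocyte nuclei, which also express this gene. With every nucleus thinned to 1500 UMIs, which left 78 and 71 Slc17a6 nuclei, the shares were 29.8% and 14.3%. Lef1 was found in 33.3% and 14.5% (18.6% and 6.69% after thinning), against 2.14% and 5.07% of Slc17a7 nuclei and 3.25% and 11.2% of oligodendrocyte nuclei. The axon-guidance ligand netrin-G1 (Ntng1) was found in 69.0% and 39.5% (60.2% and 22.0%), and in 34.7% and 35.2% of Slc17a7 nuclei, a share that lies within the interval of the WBRT-28d members (28.4 to 51.4). The actin-binding protein gene Synpo2 was found in 37.9% and 9.21% (24.97% and 5.09%), against 3.57% and 3.77% of Slc17a7 nuclei. Slitrk6, which encodes a synaptic adhesion protein of thalamic nuclei, was found in 13 nuclei (14.9%) of ShamRT-28d with 15 UMIs, and in 0 of 76 in WBRT-28d, so that nuclei with a UMI could make up at most 3.95% by the limit of 3 counts and at most 4.74% by the exact interval. Prkcd was found in 5 members of each library and Ramp3 in 2 and 3. Rora, the orphan receptor gene that cortical neurons share, was found in 88.5% and 92.1%, and in 84.8% and 90.4% of Slc17a7 nuclei.

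Read jointly, at least 5 of the 10 thalamic genes were found in 31 Slc17a6 nuclei of ShamRT-28d (35.6%, 25.7 to 46.6) and in 4 of WBRT-28d (5.26%, 1.45 to 12.9). After thinning these were 19.1% and 4.03%. The count of 5 was chosen after the values were seen, and at 3 genes the numbers were 40 (46.0%) and 17 (22.4%). Of Slc17a7 nuclei, 5 of 841 (0.595%) and 4 of 690 (0.580%, 0.158 to 1.48) held at least 5 of these genes, and the interval in WBRT-28d overlaps that of the members. Among all kept nuclei with any Slc17a6 UMI and no Mog or Flt1, a wider set than the members, 43 in ShamRT-28d (0.390% of kept nuclei) and 11 in WBRT-28d (0.0702%) held at least 5 of the 10, a ratio of 0.180 (0.0838 to 0.355). Whatever their Slc17a6, 156 kept nuclei (1.41%) in the sham library and 243 (1.55%) in the irradiated library held at least 3 of the 5 genes Tcf7l2, Lef1, Synpo2, Slitrk6 and Plekhg1 and no Mog or Flt1. Of these, 43 and 14 had a Slc17a6 UMI (0.390% and 0.0894% of kept nuclei), while 113 and 229 had none (1.02% and 1.46%). The lower number in WBRT-28d was seen with Slc17a6 and not without it, but this split uses the gene that defines the members. Its parts also differ in depth, with medians of 12192 and 12007.5 UMIs with Slc17a6 and of 3639 and 3809 UMIs without. Nuclei with Gad1 or Gad2 among the 156 and 243 were 12 and 45 (0.109% and 0.287% of kept nuclei). Other cells also express some of these genes, and how much thalamic tissue entered each preparation was not tested.

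Per UMI, most thalamic genes stood at a lower level in WBRT-28d over all members. Over all members, Tcf7l2 was at 436 CPM in ShamRT-28d and 218 CPM in WBRT-28d, a ratio of 0.5004 (0.407 to 0.612), Lef1 at 259 and 87.2 CPM (0.336, 0.244 to 0.456), and Synpo2 at 371 and 111 CPM (0.298, 0.226 to 0.390). In sub-cluster 0 alone, which clustering set apart by such genes, the 34 and 4 nuclei had no such gap for these genes or for Ntng1. Ntng1 there was at 4016 and 4247 CPM, Tcf7l2 at 756 and 1324 CPM, Lef1 at 479 and 694 CPM, and Synpo2 at 702 and 1303 CPM. Scrublet called 3 nuclei of sub-cluster 0 as doublets, and only 1 of all 87 ShamRT-28d members. Called doublets were therefore among these 4 WBRT-28d nuclei, and their part in these levels was not tested. Of the 10 thalamic genes, 7 had at least 20 UMIs, 5 of these were at least 1.5-fold lower and 1, Prkcd (14 and 18 UMIs, ratio 1.90, 0.891 to 4.12), at least 1.5-fold higher. The background over all 8223 genes with 20 UMIs was 14.6% lower and 13.7% higher. The median log2 ratio of the thalamic genes was -1.57, against 0.02 over all these genes, and -0.69 without sub-clusters 0 and 3, an alternative chosen after the data were seen. It was -2.79 without called doublets. It turned to 0.44 when the libraries were given the same sub-cluster make-up. That setting left out sub-cluster 3 and gave the 4 WBRT-28d nuclei of sub-cluster 0 the weight of all its 38 nuclei.

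**Figure D3:**
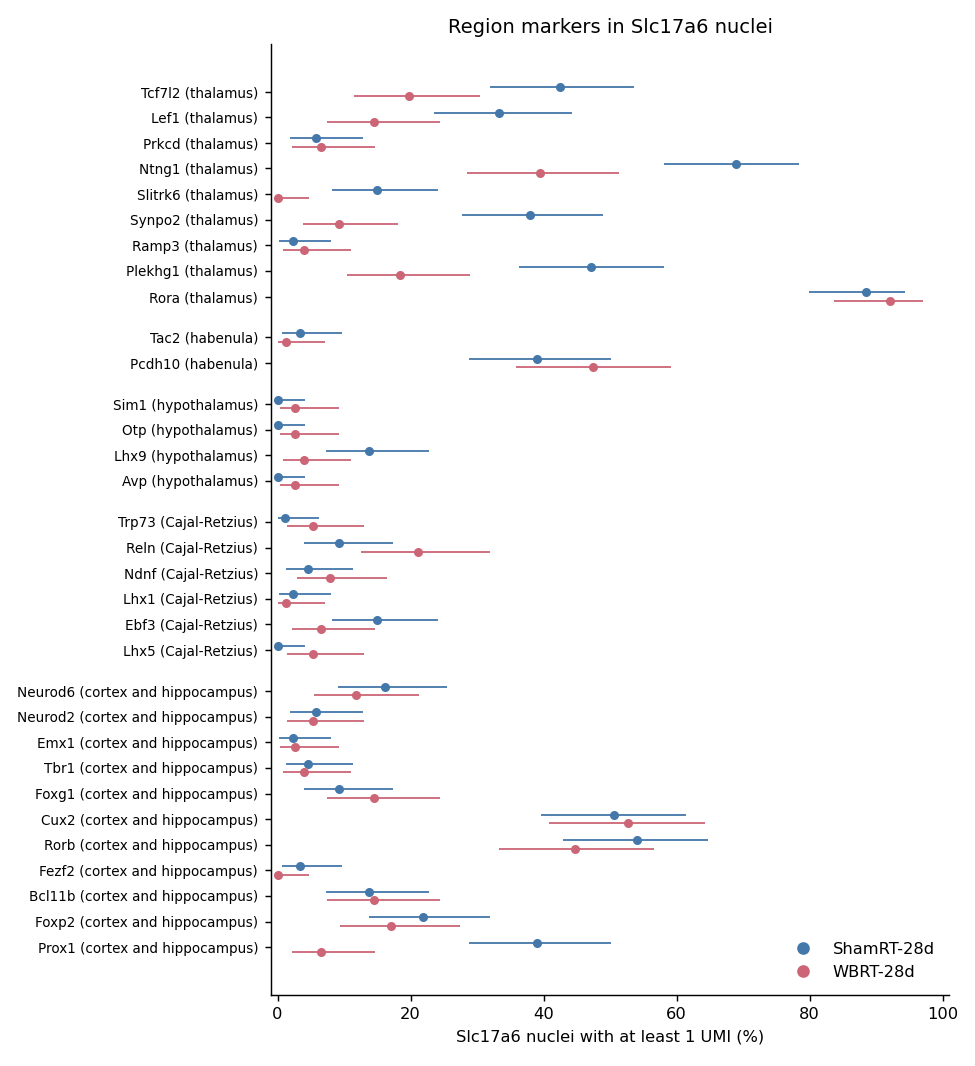
Percent of Slc17a6 nuclei (horizontal axis) with at least 1 UMI of each region marker (vertical axis) in each library, with 95% exact intervals. Tcf7l2 lies at 42.5% and 19.7%, and Rorb at 54.0% and 44.7%.

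Markers of other subcortical regions were scarce. Of the habenula genes, Gpr151 had 1 UMI in all, and Pcdh10, also known in cortex, was the only one of 7 listed with 20 UMIs. Lhx9, a LIM factor of hypothalamic and thalamic neurons, had 18 UMIs in 12 nuclei of ShamRT-28d and 3 UMIs in 3 nuclei of WBRT-28d, a ratio of 0.246 (0.0464 to 0.842), and 17 of the 18 lay in sub-cluster 0. Other hypothalamic genes had UMIs in WBRT-28d members alone, with 7 of the factor gene Sim1, 5 of the vasopressin gene Avp and 3 of the factor gene Otp, each in 2 nuclei and all in sub-cluster 1. By the limit of 3 counts Sim1 was at least 3.44-fold and Avp at least 2.46-fold higher in WBRT-28d members, from 2 nuclei each. The comparison nuclei with these genes were more in WBRT-28d too. Avp was found in 0 and 16 oligodendrocyte nuclei and in 1 and 4 Slc17a7 nuclei, and Sim1 in 0 and 3 of each set. In Slc17a6 nuclei the 17 hypothalamic genes summed to 22.8 CPM in ShamRT-28d and 36.9 CPM in WBRT-28d. No gene of the subthalamic and mammillary (8 listed), midbrain (10), hindbrain (13) or monoamine (9) lists reached 20 UMIs. The label of subcortical neurons is therefore backed by region markers for the thalamus-like nuclei, and by few of them for the rest.

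Genes of cortical neurons were found in Slc17a6 nuclei of both libraries. Rorb, a nuclear receptor gene of cortical layer 4 and thalamic neurons, was found in 54.0% of ShamRT-28d members (43.0 to 64.8) and 44.7% of WBRT-28d members (33.3 to 56.6), against 28.5% and 43.2% of Slc17a7 nuclei and 12.2% and 26.1% of oligodendrocyte nuclei. The intervals overlap, and after thinning it was found in 34.5% and 26.7%. Neurod6, a factor of cortical and hippocampal pyramidal neurons, was found in 14 members of ShamRT-28d (16.1%, 9.09 to 25.5) and 9 of WBRT-28d (11.8%, 5.56 to 21.3), against 26.0% and 14.1% of Slc17a7 nuclei. At least 3 of the 12 genes listed for cortex and hippocampus were found in 47 Slc17a6 nuclei (54.0%) in the sham library and 34 (44.7%) in the irradiated library, against 61.1% and 54.5% of Slc17a7 nuclei. After thinning these were 6.87% and 7.12% of Slc17a6 nuclei. Prox1, listed there as a gene of dentate granule cells, went with the thalamus-like nuclei instead. It was found in 84.2% of sub-cluster 0 and in 34 members of ShamRT-28d (39.1%) against 5 of WBRT-28d (6.58%). Rorb (89.5%) and Cux2 (71.1%) were frequent in sub-cluster 0 too, so that the joint count is not a share of cortical nuclei. Neurod2 was found in 5.75% and 5.26% of members, against 23.3% and 19.4% of Slc17a7 nuclei. Bcl11b was found in 13.8% and 14.5%, against 40.8% and 32.5%. Cux2 went the other way, with 50.6% and 52.6% against 25.7% and 43.8%.

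A small group in WBRT-28d carried genes of Cajal-Retzius cells, the reelin-secreting neurons of the cortical marginal zone. At least 3 of 6 listed genes were found in 4 WBRT-28d members (5.26%, 1.45 to 12.9) and in 0 of 87 in ShamRT-28d, which allows up to 3.45% by the limit of 3 counts and 4.15% by the exact interval. At 2 genes the numbers were 7 in each library (8.05% in ShamRT-28d, 9.21% in WBRT-28d). In the wider set with any Slc17a6 UMI and no Mog or Flt1, the sham library had 4 nuclei with at least 3 of the 6 genes, and the irradiated library had 8. Trp73, which encodes p73 and marks these cells, had 17 UMIs in 4 WBRT-28d nuclei and 1 UMI in 1 ShamRT-28d nucleus. All of the 4 also held Reln, Ebf3 and Ndnf, and they carried 113 of the 187 Reln UMIs of WBRT-28d members (60.4%). Ebf3 over all members was lower in WBRT-28d, with 68 and 12 UMIs and a ratio of 0.260 (0.128 to 0.485).

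Compared with Slc17a7 nuclei, Slc17a6 nuclei had 97 of 7074 genes at least 2-fold higher in both libraries (1.37%) and 65 at least 2-fold lower (0.919%). Genes were taken with at least 100 UMIs in each library over both sets. Slc17a6 and Slc17a7 set the groups apart by the rule and are no finding. Among the genes named by this comparison, those with the highest ratios in ShamRT-28d were thalamic. Lef1 was 62.8-fold higher (43.5 to 93.5) in ShamRT-28d and 5.31-fold (3.69 to 7.58) in WBRT-28d. Synpo2 was 61.8-fold (45.5 to 85.5) and 17.0-fold (11.1 to 26.6) higher, and Tcf7l2 56.2-fold (42.9 to 74.7) and 10.1-fold (7.79 to 13.1). The 4 WBRT-28d nuclei of sub-cluster 0 held 33 of 52 UMIs of Lef1 in that library, 62 of 66 of Synpo2 and 63 of 130 of Tcf7l2. Without sub-clusters 0 and 3, the lower ratio of the libraries was 2.11 for Lef1, 1.12 for Synpo2 and 5.66 for Tcf7l2. Without called doublets it was 3.08 for Lef1 and 6.21 for Synpo2. Of 6 thalamic genes measured, 5 were among the 97.

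Other genes differed from Slc17a7 nuclei by like ratios in the libraries. Vwc2, a secreted inhibitor of bone morphogenetic proteins, was 11.3-fold higher in ShamRT-28d (8.83 to 14.5) and 11.4-fold in WBRT-28d (7.66 to 17.0), but stood near GABA nuclei, with ratios to them of 1.25 (1.04 to 1.49) and 0.963 (0.731 to 1.25). The receptor tyrosine kinase gene Alk was 6.03-fold and 6.18-fold higher, Rmst, a long noncoding RNA, 4.44-fold and 3.56-fold, and the zinc transporter gene Tmem163 6.47-fold and 4.69-fold. Alk and the potassium channel interactor Kcnip1 did not stand above GABA nuclei, with ratios to them of 0.211 and 0.489 for Alk and of 0.524 and 0.478 for Kcnip1. Npsr1, the neuropeptide S receptor gene, was 12.7-fold and 4.67-fold higher than in Slc17a7 nuclei and 52.1-fold and 4.46-fold higher than in GABA nuclei.

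Several cortical and hippocampal genes were lower than in Slc17a7 nuclei. Iqgap2, a scaffold protein gene, had ratios of 0.0645 in ShamRT-28d (0.0309 to 0.119) and 0.202 in WBRT-28d (0.123 to 0.314). Bcl11b, the factor of corticospinal neurons, was at 0.253 and 0.287, the calcium-dependent phosphodiesterase gene Pde1a at 0.165 and 0.474, and Gria1, the GluA1 subunit of AMPA receptors, at 0.486 and 0.497. Grin3a, an NMDA receptor subunit gene, was 5.34-fold and 2.54-fold higher.

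**Figure D4:**
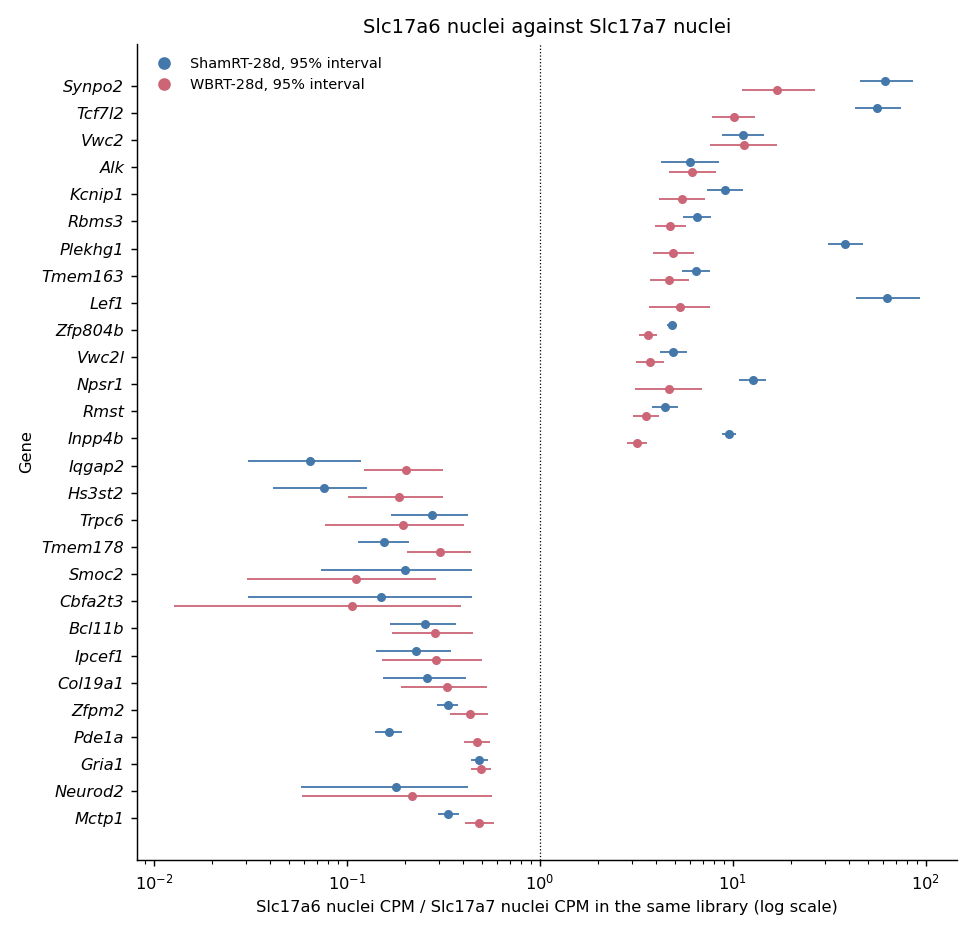
Ratio of CPM in Slc17a6 nuclei to CPM in Slc17a7 nuclei (horizontal log axis) for 28 named genes (vertical axis) in each library, with 95% intervals. Vwc2 and Alk have like ratios in ShamRT-28d and WBRT-28d, whereas Lef1 goes from 62.8 to 5.31.

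Between the conditions, 280 of 2655 genes that had 100 UMIs or more in all were at least 1.5-fold higher in WBRT-28d Slc17a6 nuclei (10.5%) and 226 at least 1.5-fold lower (8.51%). The same genes in Slc17a7 nuclei gave 177 higher (6.67%) and 91 lower (3.43%), from 1531 nuclei in place of 163. Without sub-clusters 0 and 3, which left 1724 genes with that many UMIs, 156 were higher (9.05%) and 108 lower (6.26%). Within sub-cluster 1, 99 of 827 genes were higher (12%) and 106 lower (12.8%), and within sub-cluster 2, 99 of 715 were higher (13.8%) and 60 lower (8.39%).

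Several of the genes named here among the higher ones were held by few nuclei. Meis2, a homeobox factor gene on chromosome 2, had 38 UMIs in 14 nuclei of ShamRT-28d and 264 UMIs in 30 nuclei of WBRT-28d. Its level went from 43.2 to 443 CPM, a ratio of 10.2 (7.27 to 14.8), with 5.26 in sub-cluster 1, 7.33 in sub-cluster 2 and 0.621 in Slc17a7 nuclei. Reln had 32 UMIs in 8 nuclei and 187 UMIs in 16 nuclei, a ratio of 8.61 (5.90 to 13.0), and 3.47 (2.27 to 5.44) without the nuclei that held 3 Cajal-Retzius genes. Galntl6, which encodes a glycosyltransferase-like protein, went from 339 to 1969 CPM, a ratio of 5.81 (5.11 to 6.62), but 5 nuclei carried 63.2% of its WBRT-28d UMIs. Its ratio was 5.35 in sub-cluster 1 and 1.02 in sub-cluster 2. GABA nuclei held Meis2 at 1031 and 768 CPM and Galntl6 at 3606 and 3322 CPM, above Slc17a6 nuclei in both libraries. They held Reln at 423 and 282 CPM, against 36.4 and 314 CPM in Slc17a6 nuclei. The list of GABA and glycine genes had a summed ratio of 1.83 (1.04 to 3.23) from 2 measured genes. The part of RNA from GABA neurons in these ratios was not tested.

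Erdr1 was the most evenly spread of the 12 higher genes named, with 18.5% of its WBRT-28d UMIs in the top 5 nuclei. It was found in 45 nuclei of ShamRT-28d with 81 UMIs and in 67 nuclei of WBRT-28d with 254 UMIs, a ratio of 4.62 (3.59 to 6.01). The ratio was 4.96 in sub-cluster 1, 2.73 in sub-cluster 2, 3.65 in Slc17a7 nuclei and 3.26 in GABA nuclei, so that it was not limited to Slc17a6 nuclei. Erdr1 lies in the pseudoautosomal region, where its reads can be shared with near copies, and its count is uncertain for that reason. Dgkb, a diacylglycerol kinase gene, had a ratio of 4.13 (3.45 to 4.97), with 3.58 and 6.34 in the sub-clusters 1 and 2 and 1.43 in Slc17a7 nuclei. Dscaml1, an adhesion molecule gene, was found in 19 and 41 nuclei with a ratio of 5.43 (4.07 to 7.35), against 1.16 in Slc17a7 nuclei. Gpc5, a glypican gene that astrocytes also express, had 3.87 (3.17 to 4.74) and 3.45 in Slc17a7 nuclei. The other 5 named genes, Gulp1, Il1rapl2, Dach1, Prkd1 and Baiap2, had ratios of 4.54 to 6.27. GABA nuclei held Dgkb at 1587 and 1193 CPM, above the 184 and 761 CPM of Slc17a6 nuclei. In WBRT-28d, Gulp1 was 2.38-fold and Gpc5 1.37-fold higher in Slc17a6 than in GABA nuclei.

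Most of the lower genes named had the bulk of their ShamRT-28d UMIs in sub-cluster 0 or 3. Col25a1, a membrane collagen gene, had 794 UMIs in 41 nuclei of ShamRT-28d and 60 UMIs in 22 nuclei of WBRT-28d, a ratio of 0.111 (0.0842 to 0.145). Of its ShamRT-28d UMIs, 750 lay in sub-cluster 0, where its ratio was 0.157 (0.0830 to 0.270) with 4 nuclei from WBRT-28d. Its ratio was 0.726 in sub-cluster 1, 1.33 in sub-cluster 2 and 0.841 (0.540 to 1.32) without sub-clusters 0 and 3. Ebf2 had 138 UMIs in 12 nuclei and 3 UMIs in 3 nuclei, a ratio of 0.0320 (0.00653 to 0.0956), and its ShamRT-28d UMIs were 61 in sub-cluster 1 and 77 in sub-cluster 3. Trpm6, a magnesium channel gene, had 107 UMIs in 23 nuclei and 4 UMIs in 2 nuclei, a ratio of 0.0551 (0.0147 to 0.145). In sub-cluster 0 its ratio was 0.174 (0.0208 to 0.644). Npsr1 had 363 UMIs in 27 nuclei and 41 UMIs in 6 nuclei (0.167, 0.117 to 0.230), and 323 of the 363 lay in sub-cluster 0. There it had 0 UMIs in the 4 WBRT-28d nuclei, with an upper limit of the ratio of 0.104. Its ratio was 0.469 in sub-cluster 1, 3.14 (1.05 to 12.6) in sub-cluster 2 from 4 and 20 UMIs, 0.733 (0.463 to 1.16) without sub-clusters 0 and 3, and 0.452 in Slc17a7 nuclei.

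Ntng1, Cntn6, Kcnc2, Tenm3, Rnf220 and Rgs6 had ratios below 1 in both sub-clusters 1 and 2, but some of the intervals held 1. In sub-cluster 1 these were Kcnc2 (0.589 to 1.12), Tenm3 (0.749 to 1.22) and Rnf220 (0.287 to 1.24), and in sub-cluster 2 Cntn6 (0.531 to 1.29). Ntng1 had 2038 UMIs in 60 nuclei and 300 UMIs in 30 nuclei, a ratio of 0.217 (0.192 to 0.245), and 1 nucleus held 106 of the WBRT-28d UMIs. Its ratio was 0.515 in sub-cluster 1 and 0.166 in sub-cluster 2, against 1.48 in Slc17a7 nuclei. Cntn6, a contactin gene of cell adhesion, had a ratio of 0.302 (0.249 to 0.363), with 0.316 in sub-cluster 1 and 0.826 in sub-cluster 2. Kcnc2, the gene of the fast-spiking potassium channel Kv3.2, went from 1860 to 582 CPM (0.313, 0.278 to 0.352), with 0.813 and 0.322 in sub-clusters 1 and 2. Tenm3, a teneurin gene of synaptic partner matching, had 0.307 (0.273 to 0.344), with 0.954 and 0.694 in sub-clusters 1 and 2. With the same sub-cluster make-up in both libraries, which left out sub-cluster 3, Ntng1 was at 0.856 and Kcnc2 at 1.06. Other named genes stayed lower, with Trpm6 at 0.198, Col25a1 at 0.263, Rgs6 at 0.358, Cntn6 at 0.408 and Prox1 at 0.451. Tenm3 was at 0.559, Prkch at 0.631 and Rnf220 at 0.635. Without called doublets Ntng1 was at 0.119 and Kcnc2 at 0.190, and without sub-clusters 0 and 3 Ntng1 was at 0.344. The 4 remaining named genes, Prox1, Prkch, Rnf220 and Rgs6, had ratios of 0.120 to 0.302. In sub-clusters 1 and 2, Rnf220 was at 0.602 and 0.319 and Rgs6 at 0.612 and 0.697. In sub-cluster 0, with 4 WBRT-28d nuclei, Rgs6 was at 0.0702 (0.0281 to 0.145), Tenm3 at 0.312 (0.213 to 0.441) and Cntn6 at 0.382 (0.228 to 0.603). Prkch was there at 0.586, Prox1 at 0.631, Rnf220 at 0.787, Ntng1 at 1.06 and Kcnc2 at 1.32.

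**Figure D5:**
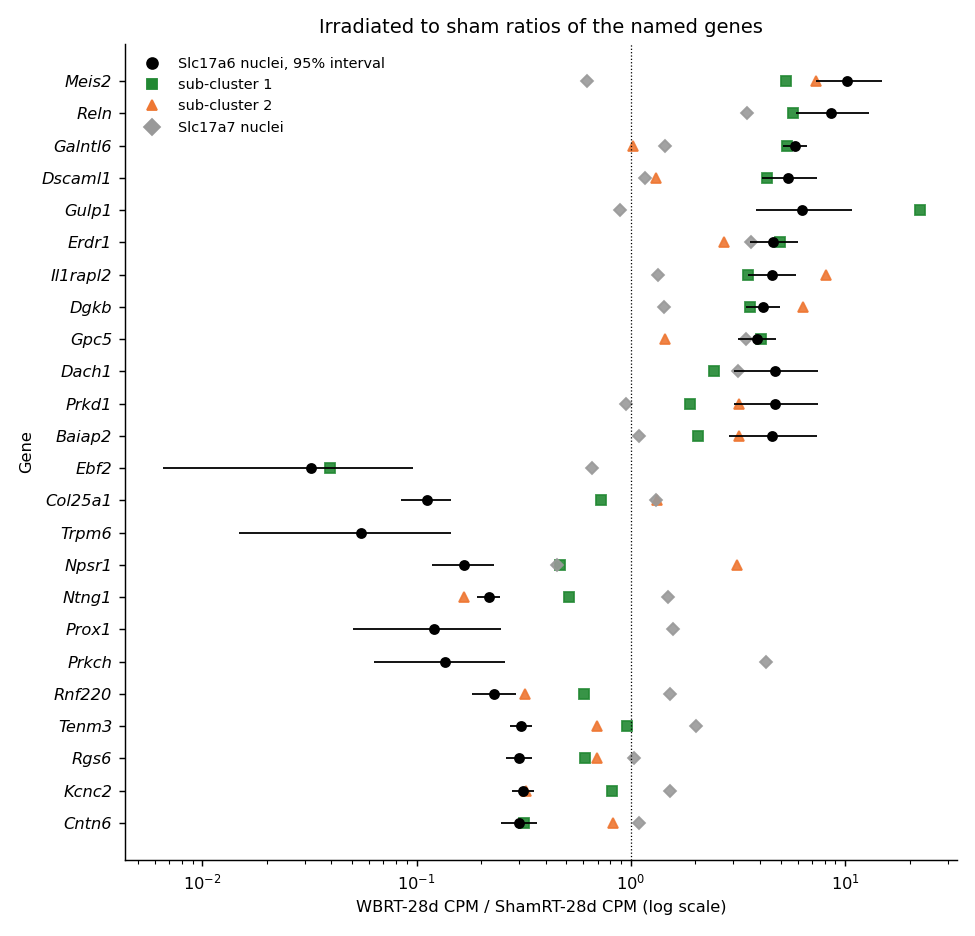
WBRT-28d to ShamRT-28d ratio of CPM (horizontal log axis) for the 24 named genes (vertical axis). Black points with 95% intervals are all Slc17a6 nuclei, squares and triangles the sub-clusters 1 and 2, and diamonds Slc17a7 nuclei, drawn where at least 20 UMIs were counted and the ratio is above 0. Col25a1 lies at 0.111 over all Slc17a6 nuclei and at 1.33 in sub-cluster 2.

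By function, lists of neuronal genes split both ways, and the background for each is the 13.7% higher and 14.6% lower given above. Of 24 potassium channel and HCN genes measured, 3 were at least 1.5-fold higher and 7 lower, with a median log2 ratio of -0.33. Kcnip4, the Kv4 channel interactor and the most counted gene of that list, went from 22001 to 8867 CPM, a ratio of 0.403 (0.391 to 0.416), with 0.430 and 0.481 in sub-clusters 1 and 2 and 0.996 in Slc17a7 nuclei. Sub-cluster 0 held 13395 of its ShamRT-28d UMIs and had it at 31150 CPM in ShamRT-28d and 33680 CPM in the 4 WBRT-28d nuclei. The pacemaker channel gene Hcn2 had 45 UMIs in 31 nuclei and 8 UMIs in 8 nuclei (0.262, 0.107 to 0.562). Of 12 calcium channel genes, 3 were higher and 1 lower, Cacna1c of the L-type channel, at 0.454 (0.409 to 0.503). Sub-cluster 0 held 1198 of its ShamRT-28d UMIs and had it at 2786 CPM in ShamRT-28d and 3364 CPM in WBRT-28d. It went from 783 to 662 CPM in sub-cluster 1 and from 805 to 516 CPM in sub-cluster 2.

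Lists of receptors and synaptic genes had medians nearer to that of all genes. Of 24 glutamate receptor genes, 4 were higher and 1 lower, with a median log2 ratio of 0.03. The kainate receptor gene Grik2 was at 1.51 (1.38 to 1.65) and the metabotropic Grm7 at 0.988 (0.928 to 1.05). Of 18 GABA and glycine receptor genes, 1 was higher and 5 lower. Gabra4 had a ratio of 0.390 (0.316 to 0.478), and Gabrd, with which it forms extrasynaptic receptors in thalamus, had 73 UMIs in 31 nuclei and 10 UMIs in 8 nuclei (0.202, 0.0930 to 0.393). Gabra4 was at 1.39 in sub-cluster 1, and went from 313 to 149 CPM in sub-cluster 2. Sub-cluster 0 held 369 of its ShamRT-28d UMIs and had it at 858 and 841 CPM. Of 21 synapse genes, 5 were higher and 1 lower, among them Homer1 at 2.22 (1.76 to 2.81) and Camk2a at 1.85 (1.60 to 2.14), against 0.769 and 1.48 in Slc17a7 nuclei. Of 25 axon guidance and adhesion genes, 6 were higher and 6 lower. The netrin receptor gene Unc5d was at 2.94 (2.62 to 3.29), with 2.12 in Slc17a7 nuclei, and the cadherin gene Cdh18 at 0.434 (0.379 to 0.495), with 0.421 in Slc17a7 nuclei. Of 8 genes of glutamate release and synthesis measured, 0 were higher and 1 lower. Cbln1, which encodes a secreted synapse organizer, had 23 UMIs in 13 nuclei of ShamRT-28d and 0 in WBRT-28d, at least 5.20-fold lower by the limit of 3 counts. Of the 23 UMIs, 21 lay in sub-cluster 0.

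In the lists of p53 targets, senescence and DNA repair, most measured genes lay within 1.5-fold. Of 30 p53 targets, 10 were measured, 1 higher and 2 lower, with a median log2 ratio of -0.06. Sesn1 was at 131 CPM in both libraries (ratio 0.9999, 0.740 to 1.34), and Mdm2 at 52.3 and 45.3 CPM (0.865, 0.517 to 1.42). Cdkn1a, which encodes the cell cycle inhibitor p21, had 0 and 3 UMIs, and Cdkn2a 0 UMIs in both libraries, so that a difference was not detectable at this depth. Of 5 measured genes of cell cycle inhibition and senescence, 0 passed the fold in either direction. Of 12 DNA repair genes 1 was higher and 4 lower, and the damage kinase gene Atr had 60 UMIs in 34 nuclei and 14 UMIs in 10 nuclei (0.344, 0.178 to 0.623), against 0.9498 in Slc17a7 nuclei. Of 15 genes of oxidative phosphorylation 0 were higher and 3 lower, and 13 had ratios below 1, as did 3984 of all 8223 genes. The median log2 ratio of this list was -0.22, and 0.41 in members with Tcf7l2. Of 8 heat shock genes 4 were higher and 2 lower, with Hsp90aa1 at 1.65 (1.20 to 2.28) and at 1.53 in Slc17a7 nuclei. Of 7 immediate early genes 3 were higher and 1 lower, with a median log2 ratio of 0.44 that was -1.18 at 3 UMIs or more of Slc17a6, and of 3 measured interferon and MHC class I genes 0 passed the fold.

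Some genes of glia and vessels were higher in WBRT-28d members, and in the comparison nuclei of that library too. The 8 astrocyte genes summed to 874 and 1060 CPM (0 to 12900 and 0 to 11950 in single nuclei), against 847 and 986 CPM in Slc17a7 nuclei. The glutamate uptake gene Slc1a3 had 16 and 71 UMIs, a ratio of 6.54 (3.76 to 12.1), with 3.55 in Slc17a7 nuclei. At least 4 of the 8 were found in 3 (3.45%) and 9 (11.8%) Slc17a6 nuclei, and in 2.62% and 11.9% of Slc17a7 nuclei. Flt1, an endothelial receptor gene that the rule uses, had 0 and 34 UMIs, the latter in 8 nuclei, and the 7 vascular genes summed to 13.7 and 109 CPM, of which Flt1 made 57.0 CPM in WBRT-28d. In Slc17a7 nuclei the vascular genes summed to 26.9 and 97.0 CPM and Flt1 went from 6.13 to 35.9 CPM, and in GABA nuclei the sums were 39.6 and 112.5 CPM. Of 7 oligodendrocyte genes measured 0 were higher and 1 lower, and of 3 microglial genes 0 higher and 2 lower. The part of these genes in the other differences between the libraries was not tested.

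Across 11 points, the 7 sub-cluster and library combinations and the 4 comparison sets of Slc17a7 and GABA nuclei, the genes whose level most resembled that of Slc17a6 were Wdfy2, with Pearson's r of 0.920, Tshz2 (0.864), Ap3b2 (0.856), Cdk14 (0.847) and Osbpl6 (0.846), on log2(CPM + 10). The points share 2 libraries, the sub-clusters were made from the same counts, and the rule itself set the Slc17a6 level high in the sub-clusters and low in the comparison sets, so that the r values are descriptions only. Tshz2, a zinc finger factor gene, spanned 63.6 to 1683 CPM over these points, and Wdfy2 47.3 to 88.4 CPM.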

How the data were processed

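Nuclei were extracted from frozen mouse whole brains and run on the 10x Genomics Chromium system. Raw UMI counts per gene and barcode were deposited by the authors, made with Cell Ranger 5.0.0 and a pre-mRNA reference of mm10. Seurat 3.0 and R 3.5.3 are listed in the notes of the submitters too. The labels give an earlier version of the 3′ chemistry than the barcodes look like. No cell type annotation was used.

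Of 11469 and 15986 barcodes, 326 and 0 had under 500 detected genes and 107 and 318 over 5% mitochondrial UMIs. The 11037 kept ShamRT-28d nuclei held 45022909 UMIs and the 15668 of WBRT-28d 67724763. Doublets were called with Scrublet at expected rates of 9.18% and 12.8%, and were kept. The WBRT-28d rate exceeded the expected one. UMIs were summed over nuclei per library, and ratios of CPM were given with exact conditional binomial intervals, shares with Clopper-Pearson intervals and CPM with Poisson intervals, at 95%. Nuclei were clustered by Leiden at resolution 0.5 on 1500 variable genes, 20 principal components and 15 neighbors, without integration. Genes were called at 1.5-fold between conditions (100 UMIs, or 20 for listed genes) and at 2-fold between sets. The floor for a count of 0 was 3 counts per library. The 36 lists held 459 genes.

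Named genes were the 12 in each direction between conditions, and the 15 in each direction against Slc17a7 nuclei, whose interval lay farthest from a ratio of 1 (predicted and mitochondrial genes left out), the genes of the rule, the 6 most counted of each list, region markers found in 2% of members, and the 10 genes most like Slc17a6. Members and lists were chosen with earlier results of these data known. A few genes and counts outside this rule were named after their values were seen. Positions are of GENCODE M21 (GRCm38). A few genes that the rule names are not reported here. The scripts were tested on simulated data. Analyses were run in Python 3.11.15 with scanpy 1.11.5, anndata 0.12.19 and igraph 0.11.9 for nuclei, pandas 2.3.3, scipy 1.17.1 and numpy 2.4.6 for values, and matplotlib 3.10.9 for figures.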

Additional observations from a re-analysis of the deposited data

How the results depend on the processing

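Each condition has 1 library and each value rests on 87 and 76 nuclei, so that the depth limits all ratios of genes under 100 UMIs. The share ratio of 0.615 was 0.431 at 3 UMIs or more of Slc17a6, where the shares were 0.444% and 0.192%, and 1.13 without sub-clusters 0 and 3, where the ShamRT-28d share was 0.408%. Those sub-clusters were mostly ShamRT-28d nuclei (34 of 38 and 8 of 8), so that leaving them out sets the direction of that ratio. That share was 1.09% among nuclei with at least 1000 detected genes, and the WBRT-28d share 0.332% with no marker of other cells. Of genes between conditions, 174 were higher at 3 UMIs of Slc17a6, 158 in members with Tcf7l2 and 137 in those without, 1128 with a minimum of 20 UMIs, 48 with 500 UMIs and 156 without sub-clusters 0 and 3, of 1610, 1105, 1459, 8223, 436 and 1724 genes in turn. The lower genes were 117 in members without Tcf7l2, 1200 at 20 UMIs, 52 at 500 UMIs and 108 without sub-clusters 0 and 3. The median log2 ratio of the thalamic list was -2.79 without called doublets, -0.67 at 3 UMIs of Slc17a6, -1.12 with no marker of other cells, -0.41 in members with Tcf7l2, -0.54 in those without, -0.69 without sub-clusters 0 and 3, and 0.44 with the same sub-cluster make-up in both libraries. Against Slc17a7 nuclei, 22 genes were higher and 13 lower at 500 UMIs, 155 lower at 3 UMIs of Slc17a6, and 61 higher without sub-clusters 0 and 3. Tcf7l2 was found in 57.1% of ShamRT-28d members at 3 UMIs of Slc17a6, 29.8% after thinning and 15.6% without sub-clusters 0 and 3. The sub-clusters numbered 7 in place of 4 at resolution 1.0. Among named genes, and among lists whose median was past 1.5-fold, directions turned for Prkch without sub-clusters 0 and 3 (2.15, 0.172 to 113), for Kcnc2 with the same sub-cluster make-up (1.06), for the median of the Cajal-Retzius list without Tcf7l2 members (-0.13) and without nuclei holding 3 Cajal-Retzius genes (-1.35), for the astrocyte list at 3 UMIs of Slc17a6 (-0.35) and at 100 UMIs per gene (-0.20), and for the microglial list without Tcf7l2 members (0.14) and without sub-clusters 0 and 3 (0.11). Of the 21 lists with a median under 1.5-fold, 15 had the other sign in some setting, among them immediate early genes (0.44; -1.18 at 3 UMIs of Slc17a6, -0.24 with no marker of other cells, -0.37 with the same make-up, -0.17 without Tcf7l2 members, -0.36 without sub-clusters 0 and 3), oxidative phosphorylation (-0.22; 0.41 with Tcf7l2), oligodendrocyte genes (-0.17; 1.26 with Tcf7l2) and heat shock genes (0.33; -0.19 as a mean over nuclei). The alternatives without sub-clusters 0 and 3 and without nuclei holding 3 Cajal-Retzius genes were chosen after the data were seen. Apart from fewer or other nuclei and genes, the causes were not tested. No paired analysis was possible because each condition has a single library.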
